A study of Mus musculus with 12 samples.

Results

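Bone morphogenetic protein (BMP) and transforming growth factor beta (TGF-beta) signaling was examined in the cerebral vessels of mice given lipopolysaccharide (LPS) through 10 genes, out of 54119 genes with summed counts. The 10 genes were chosen by name for their roles in these pathways: the ligand *Tgfb2*, the receptors *Tgfbr2*, *Bmpr2* and *Acvrl1*, the co-receptor *Eng*, and the SMAD target genes *Id1*, *Id2*, *Id3*, *Smad6* and *Smad7*. These genes and the lists below were chosen with earlier results of these data known. The shares of all genes given beside their counts are therefore a setting and not a test of the set. All 10 were present in the annotation, and all 10 passed the filter on low counts. RNA-seq was run on vessels isolated from the forebrain of wild type C57BL6 mice aged 2 to 3 months, which received 1 intraperitoneal injection of LPS, a cell wall component of Gram-negative bacteria, at 10 mg/kg or of phosphate-buffered saline (PBS). Vessels were collected at 15 min, at 30 min or at 4 h after LPS, and the time after PBS was not given in the sources used here. Each of the 4 groups had 3 libraries, and each library held 1 male and 1 female mouse pooled, so the sexes cannot be told apart. The p-values below measure the spread between these 3 pools of mice per group.

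BMP and TGF-beta ligands bring together a type II and a type I serine/threonine kinase receptor, which phosphorylates receptor SMAD proteins that enter the nucleus with SMAD4. BMP signals run mainly through SMAD1, SMAD5 and SMAD9 and turn on the *Id* genes, and TGF-beta signals run mainly through SMAD2 and SMAD3. In endothelial cells the type I receptor ALK1, encoded by *Acvrl1*, and its co-receptor endoglin, encoded by *Eng*, respond to circulating BMPs and keep vessels quiescent, and inherited loss of either gene causes vascular malformations. The inhibitory SMADs encoded by *Smad6* and *Smad7* are induced by the pathway and shut it down as feedback.

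SMAD proteins bind short DNA letters, and the start regions of the members were searched for 3 of them on both strands: the palindromic SMAD box GTCTAGAC, the element GGCGCC bound by BMP SMADs, and the SMAD-binding element CAGAC. The window ran from 250 bases before the RefSeq start to the first 4 transcribed bases (GRCm38.p6). The windows of 7 members were searched: *Id2*, *Id3*, *Smad6*, *Eng*, *Bmpr2*, *Tgfbr2* and *Tgfb2*. Those of *Id1*, *Smad7* and *Acvrl1* were not searched. The windows of *Smad6*, *Tgfb2* and *Eng* are printed because their RefSeq start was the start of the gene in the annotation used for counting, and because they stand for a target that fell late, a ligand that fell early and a receptor that was called in no comparison. They are read 5′ to 3′ on the strand of the gene, with the matches in capitals.
Smad6, chr9:64022056-64022309, minus strand: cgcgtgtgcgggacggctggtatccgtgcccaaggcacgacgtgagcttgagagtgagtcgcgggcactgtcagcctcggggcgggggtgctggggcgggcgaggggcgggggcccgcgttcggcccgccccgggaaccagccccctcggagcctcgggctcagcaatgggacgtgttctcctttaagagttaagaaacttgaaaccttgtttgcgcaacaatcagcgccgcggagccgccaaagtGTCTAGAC
Tgfb2, chr1:186705986-186706239, minus strand: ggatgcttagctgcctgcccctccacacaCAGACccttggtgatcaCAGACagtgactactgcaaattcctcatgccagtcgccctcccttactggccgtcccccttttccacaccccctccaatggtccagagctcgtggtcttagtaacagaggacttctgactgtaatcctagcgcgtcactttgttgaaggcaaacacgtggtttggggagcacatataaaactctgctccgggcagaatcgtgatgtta
Eng, chr2:32646345-32646598, plus strand: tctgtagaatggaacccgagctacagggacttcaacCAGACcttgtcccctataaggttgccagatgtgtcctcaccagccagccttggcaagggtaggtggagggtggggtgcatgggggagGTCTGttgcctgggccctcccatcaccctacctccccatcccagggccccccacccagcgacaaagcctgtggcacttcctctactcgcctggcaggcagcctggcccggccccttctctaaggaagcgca
The *Smad6* window ended with GTCTAGAC, which lay across the start itself, and 56 of 32851 RefSeq start windows of the same length (0.17%) held these letters. CAGAC or its reverse complement GTCTG was found at 2 places each in *Tgfb2*, *Eng* and *Id3* and at 1 place in *Tgfbr2*, and 43.0% of all windows held it. GGCGCC was found at 1 place each in *Id2* and *Bmpr2*, and 9.68% of all windows held it. No match overlapped another, and a match describes the letters and not a bound site.

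The libraries held 18309177 to 25882028 fragments, and 19150 genes passed the filter. Levels are given as counts-per-million (CPM) of fragments, scaled by trimmed mean of M-values (TMM), which assumes that most genes did not change. The TMM factors were 1.16 to 1.17 in PBS and 0.715 to 0.718 at 4 h, and the median log2 fold change of all genes was -0.0098 at 4 h and -0.01 at 30 min with TMM, and -0.71 and -0.17 with library size alone. Less that median, no member differed from its TMM value by more than 0.038. The scalings shift all genes of a comparison by nearly the same amount, so this closeness was built in. It cannot show which scaling holds. The genes called at 4 h were 58.0% higher ones with TMM and 18.2% with library size alone. For 30 min against PBS these shares were 82.6% and 61.4%, for 30 min against 15 min 57.9% and 37.2%, and for 4 h against 30 min 58.9% and 21.7%. A gene was called when its change exceeded 1.5-fold at an adjusted p under 0.05 in edgeR's glmTreat test.

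Cell type markers moved as well. All 8 endothelial markers were detected, and at 4 h *Cdh5* and *Erg* were called higher and *Pecam1*, *Cldn5*, *Kdr*, *Tek* and *Slc2a1* lower, so that their summed level went from 9196 to 9500 CPM in PBS to 6342 to 6415 CPM. With library size alone 1 was higher and 6 were lower, as *Erg* (0.22) was not called and *Flt1* (-0.78) was. Of 4 neutrophil markers, 3 were called higher at 4 h, their summed level went from 1.95 to 2.56 CPM in PBS to 158 to 165 CPM, and *Ly6g* had 0 counts in PBS. All 3 erythroid markers and 2 of 3 choroid plexus markers were higher at 4 h, with summed levels of 4442 to 4649 CPM against 1480 to 1596 CPM and of 17250 to 18140 CPM against 10260 to 10690 CPM in PBS. At 15 min 3 of 4 smooth muscle markers were lower, with a summed level of 1488 to 1508 CPM against 2346 to 2382 CPM in PBS. Of the other lists at 4 h, 3 of 5 astrocyte markers were higher, and 2 of 6 microglia, 1 of 4 fibroblast, 1 of 4 neuron and 1 of 4 oligodendrocyte markers were lower. DESeq2 called 1 astrocyte, 2 microglia, 1 fibroblast, 1 neuron and 0 oligodendrocyte markers at 4 h. Of 7 pericyte markers 0 were called at 4 h by glmTreat or DESeq2 with TMM or size factors, and 0 reached an unadjusted p under 0.05 in glmTreat. All 7 pericyte markers were called lower with library size alone, as were 3 of 4 smooth muscle, 5 of 6 microglia, 4 of 4 neuron, 3 of 4 fibroblast and 3 of 4 oligodendrocyte markers, while 0 choroid plexus and 2 astrocyte markers remained higher and 1 astrocyte marker was lower. The calls of the 3 neutrophil and 3 erythroid markers held. The part of these shifts in the changes below was not tested, and in bulk RNA fewer cells of a type and less RNA per cell cannot be told apart.

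Within minutes of LPS, 1 member was called higher and 1 lower beyond 1.5-fold. By 4 h the RNAs of the inhibitory SMADs and of ALK1 had fallen to between 0.322 and 0.395 of their PBS level while *Id3* had risen. At 15 min *Id1* was called higher and *Tgfb2* lower, against backgrounds of 3.31% of all genes called higher and 0.872% called lower. The same calls were made at 30 min, where the backgrounds were 3.78% higher and 0.799% lower. At 4 h *Id3* was called higher and *Id1*, *Smad6*, *Smad7*, *Acvrl1* and *Tgfb2* lower, against 19% of all genes higher and 13.8% lower. Without a fold limit, in edgeR's quasi-likelihood F test, 8 members differed from PBS at 15 min, 8 at 30 min and 10 at 4 h, against 38.6%, 36.9% and 68.5% of all genes. These 3 comparisons share the PBS libraries. Libraries that do not overlap between groups were common among all genes. The 15 min libraries lay wholly above or wholly below PBS for 49.3% of the 19150 genes. This share was 46.7% for the 30 min libraries and 70.9% for the 4 h libraries. Of the 10 members, 8, 8 and 10 were apart from PBS in this way, in time order. Statements below that groups lay apart or overlapped describe the libraries and are not a test.

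The times after LPS were also compared with each other. Between 15 and 30 min 0 members were called, against backgrounds of 2.69% higher and 1.96% lower. None of the 10 reached an unadjusted p under 0.05 in glmTreat, DESeq2 and limma called 0, and 5 differed without a fold limit, against 37.4% of all genes. Between 30 min and 4 h *Id3* and *Tgfbr2* were called higher and *Id1*, *Smad6*, *Smad7* and *Acvrl1* lower, against 16.9% of all genes higher and 11.8% lower.

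**Figure D1:**
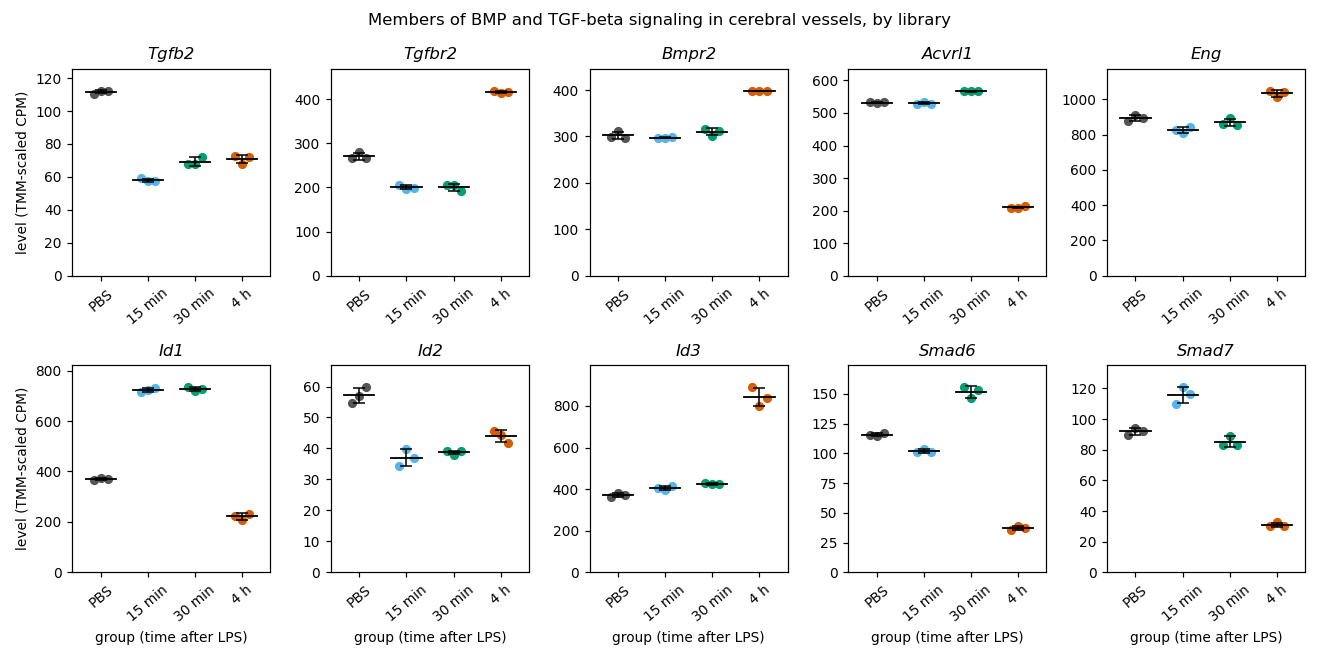
Level of each member in TMM-scaled CPM (vertical axes, from 0) in the 3 libraries of PBS and of LPS at 15 min, at 30 min and at 4 h. Points are libraries, and bars are the mean and its SD. *Id1* stood at 716 to 733 CPM at 15 and 30 min and at 208 to 233 CPM at 4 h, on either side of 367 to 372 CPM in PBS, whereas *Tgfb2* stayed at 57.3 to 72.9 CPM at all 3 times against 110.5 to 112 CPM in PBS.

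*Tgfb2* (ENSMUSG00000039239, chr1:186622792-186705989, minus strand) encodes TGF-beta 2, a secreted ligand of the pathway. Its 3 PBS libraries held 110.5, 112.3 and 112.0 CPM, and the 15 min libraries held 59.0, 57.3 and 57.5 CPM. At 30 min the values were 67.7, 67.6 and 72.2 CPM, and at 4 h they were 72.9, 67.9 and 71.9 CPM. Each LPS group lay wholly below PBS, and the 30 min and 4 h groups overlapped each other. The fall at 15 min was -0.94 ± 0.039 on the log2 scale (SE, n = 3 per group, edgeR glmTreat adjusted p = 4.71e-08), to 0.52 of the PBS level. At 30 min it was -0.69 ± 0.039 (glmTreat adjusted p = 0.0336) and at 4 h -0.66 ± 0.041 (glmTreat adjusted p = 0.0435). The call at 15 min held in every alternative, but those at 30 min and 4 h lay close to the 1.5-fold limit. The call at 30 min was lost in edgeR without PBS replicate 1, 2 or 3 (adjusted p = 0.0562, 0.0905 and 0.0813) and without LPS 30 min replicate 1 or 2 (0.142 and 0.147). The call at 4 h was lost in edgeR without PBS replicate 2 or 3 (adjusted p = 0.0635 and 0.0593) and without LPS 4 h replicate 2 (0.19). DESeq2 made neither of these calls, with adjusted p = 0.0921 at 30 min and 0.304 at 4 h. Smooth muscle markers were lower at 15 min as well, as given above, and 3 of 4 of them were called. At 30 min and 4 h 0 of 4 were called with TMM, with summed levels of 2111 to 2159 CPM and 2218 to 2268 CPM. A link between these markers and *Tgfb2* was not tested. The antisense gene *Gm29491* shares 124 exon bases with *Tgfb2*, had a mean count of 3.04, and cannot be told apart from it in a library that does not mark strand.

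*Tgfbr2* (ENSMUSG00000032440, chr9:116084293-116175360, minus strand) encodes the type II receptor to which TGF-beta ligands bind. Its level was 267, 280.3 and 266 CPM in PBS, 206, 197 and 198.5 CPM at 15 min and 205, 205 and 191 CPM at 30 min. At 4 h it was 419, 413 and 417 CPM. The 15 and 30 min groups lay below PBS and overlapped each other, and the 4 h group lay above all others. From 30 min to 4 h the gene rose 2.08-fold (log2 fold change 1.06 ± 0.031, glmTreat adjusted p = 3.33e-13). This value was 0.52 with library size alone, and the call was lost. Against PBS the log2 fold changes were -0.44 ± 0.030 at 15 min, -0.44 ± 0.031 at 30 min (glmTreat adjusted p = 1 for both) and 0.62 ± 0.030 at 4 h (glmTreat adjusted p = 0.12). All 3 passed the quasi-likelihood F test without a fold limit, with adjusted p = 6.65e-11, 6.41e-11 and 1.27e-14. Without PBS replicate 2 the 4 h value was 0.64 and was called (edgeR adjusted p = 0.0468), and with library size alone it turned to -0.08.

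*Acvrl1* (ENSMUSG00000000530, chr15:101128522-101145336, plus strand) encodes ALK1, the endothelial type I receptor. The level was 534, 529.7 and 533 CPM in PBS, 528, 534 and 528 CPM at 15 min, and 568, 566 and 566 CPM at 30 min. At 4 h it was 209, 208 and 213 CPM. PBS and 15 min overlapped, and the 4 h libraries lay far below all others. *Acvrl1* RNA fell to 0.395 of its PBS level at 4 h (log2 fold change -1.34 ± 0.023, glmTreat adjusted p = 5.62e-20) and to 0.371 of its 30 min level (-1.43 ± 0.023, glmTreat adjusted p = 8.24e-21). At 15 min the log2 fold change was -0.0046 ± 0.021 and at 30 min 0.09 ± 0.021 (glmTreat adjusted p = 1 for both). The 30 min value turned to -0.07 with library size alone. The antisense gene *Gm16031* shares 127 exon bases with *Acvrl1* and had a mean count of 9.37.

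*Bmpr2* (ENSMUSG00000067336, chr1:59763400-59879014, plus strand) encodes the type II BMP receptor that pairs with ALK1. Its values were 299, 311 and 297 CPM in PBS, 297, 296 and 298 CPM at 15 min and 316, 301 and 312 CPM at 30 min. At 4 h they were 398.5, 397 and 398 CPM, above every other library. The log2 fold changes were -0.03 ± 0.025 at 15 min, 0.04 ± 0.025 at 30 min and 0.40 ± 0.025 at 4 h, and glmTreat gave an adjusted p of 1 at each time. The 4 h value passed the quasi-likelihood F test without a fold limit (adjusted p = 2.38e-12), but with library size alone it turned to -0.31.

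*Eng* (ENSMUSG00000026814, chr2:32646595-32682669, plus strand) encodes endoglin, which presents BMP ligands to ALK1. It was the member with the highest CPM in PBS, at 877, 913 and 891 CPM. The levels were 827, 807 and 844 CPM at 15 min, 861, 892 and 853 CPM at 30 min and 1048, 1013 and 1039 CPM at 4 h. The 15 min group lay below PBS, the 30 min group overlapped it, and the 4 h group lay above it. The log2 fold changes were -0.11 ± 0.024, -0.04 ± 0.024 and 0.21 ± 0.024, with an adjusted p of 1 in glmTreat each time. The 4 h value passed the quasi-likelihood F test (adjusted p = 7.37e-08) and turned to -0.49 with library size alone. *Fpgs*, on the opposite strand, shares 61 exon bases with *Eng* and had a mean count of 404. At 4 h, therefore, the co-receptor *Eng* and its partner *Acvrl1* differed in direction with TMM, and with library size alone both were lower.

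*Id1*, *Id2* and *Id3* encode inhibitors of DNA binding, helix-loop-helix proteins without a DNA-binding region that capture other transcription factors, and they are direct targets of BMP SMADs. The 3 genes followed different courses. *Id1* (ENSMUSG00000042745, chr2:152736251-152737410, plus strand) stood at 367, 372 and 369 CPM in PBS. It was at 716, 722.5 and 729.8 CPM at 15 min and at 733, 718 and 727 CPM at 30 min, and these groups overlapped each other. At 4 h it was at 224, 208 and 233 CPM, below every PBS library. *Id1* rose 1.96-fold at 15 min (log2 fold change 0.97 ± 0.029, glmTreat adjusted p = 6.07e-11) and 1.96-fold at 30 min (0.97 ± 0.029, glmTreat adjusted p = 2.26e-11). At 4 h it fell to 0.60 of PBS (-0.74 ± 0.030, glmTreat adjusted p = 1.99e-05), and between 30 min and 4 h to 0.305 (-1.71 ± 0.030, glmTreat adjusted p = 1.56e-20). These 4 calls held in every alternative.

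*Id2* (ENSMUSG00000020644, chr12:25093799-25097140, minus strand) was the least abundant of the 3, at 54.8, 56.9 and 59.7 CPM in PBS. The values were 34.3, 39.7 and 37.0 CPM at 15 min, 39.1, 38.0 and 39.1 CPM at 30 min and 45.7, 44.5 and 41.7 CPM at 4 h. All LPS libraries lay below all PBS libraries. The log2 fold changes were -0.63 ± 0.055 at 15 min, -0.56 ± 0.055 at 30 min and -0.38 ± 0.058 at 4 h, and none passed glmTreat (adjusted p = 0.796, 1 and 1). All passed the quasi-likelihood F test without a fold limit, with adjusted p = 3.17e-09, 2.56e-08 and 4.25e-06. With library size alone *Id2* was called at 30 min (-0.72, glmTreat adjusted p = 0.0479) and at 4 h (-1.08, glmTreat adjusted p = 5.42e-09).

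*Id3* (ENSMUSG00000007872, chr4:136143497-136145755, plus strand) stood at 364, 381 and 372 CPM in PBS, near *Id1*. It was at 405, 397 and 414 CPM at 15 min and at 428, 424 and 422 CPM at 30 min, each group just above PBS. At 4 h it reached 889, 802 and 839.6 CPM, above all other libraries. *Id3* rose 2.26-fold at 4 h (log2 fold change 1.18 ± 0.030, glmTreat adjusted p = 2.21e-15) and 1.98-fold from 30 min to 4 h (0.99 ± 0.030, glmTreat adjusted p = 4.37e-12). Neither was called with library size alone (0.47 and 0.45). The earlier changes were 0.12 ± 0.030 at 15 min and 0.19 ± 0.030 at 30 min (glmTreat adjusted p = 1 for both). *Id1* and *Id3* thus lay on opposite sides of PBS at 4 h with either scaling.

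*Smad6* (ENSMUSG00000036867, chr9:63953076-64022059, minus strand), whose start carried GTCTAGAC, encodes the inhibitory SMAD that acts mainly on BMP receptors. Its levels were 116, 114 and 117 CPM in PBS, 101, 104 and 102 CPM at 15 min and 155.5, 146 and 153 CPM at 30 min. At 4 h they were 35.4, 38.6 and 37.5 CPM. The 15 min libraries lay below PBS, the 30 min libraries above it, and the 4 h libraries below all others. The log2 fold changes against PBS were -0.18 ± 0.035 at 15 min and 0.39 ± 0.034 at 30 min (glmTreat adjusted p = 1 for both). Both passed the quasi-likelihood F test without a fold limit (adjusted p = 0.000216 and 3.75e-09), as did the difference of 0.57 ± 0.035 between 15 and 30 min (adjusted p = 7.04e-12). At 4 h *Smad6* fell to 0.322 of PBS (-1.64 ± 0.042, glmTreat adjusted p = 2.71e-17) and to 0.246 of its 30 min level (-2.03 ± 0.042, glmTreat adjusted p = 9.97e-20).

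*Smad7* (ENSMUSG00000025880, on chromosome 18) encodes the inhibitory SMAD that acts on TGF-beta and BMP receptors. Its levels were 89.6, 94.2 and 92.4 CPM in PBS, 109.9, 121 and 116 CPM at 15 min and 83.3, 89.2 and 83.3 CPM at 30 min. At 4 h they were 30.4, 32.7 and 30.3 CPM. The order at the early times was the reverse of *Smad6*, with 15 min above PBS and 30 min below it. The log2 fold changes were 0.33 ± 0.042 at 15 min and -0.11 ± 0.043 at 30 min (glmTreat adjusted p = 1 for both). The difference between 15 and 30 min was -0.44 ± 0.042 and passed the quasi-likelihood F test without a fold limit (adjusted p = 1.79e-08). At 4 h *Smad7* fell to 0.338 of PBS (-1.56 ± 0.051, glmTreat adjusted p = 5.28e-15) and to 0.365 of its 30 min level (-1.45 ± 0.052, glmTreat adjusted p = 8.63e-14). The 4 h calls of *Smad6*, *Smad7* and *Acvrl1* held in every alternative. In the same libraries the summed level of endothelial markers was lower, with 5 of 8 called lower and *Cdh5* and *Erg* called higher. The part of these shifts in the falls was not tested.

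**Figure D2:**
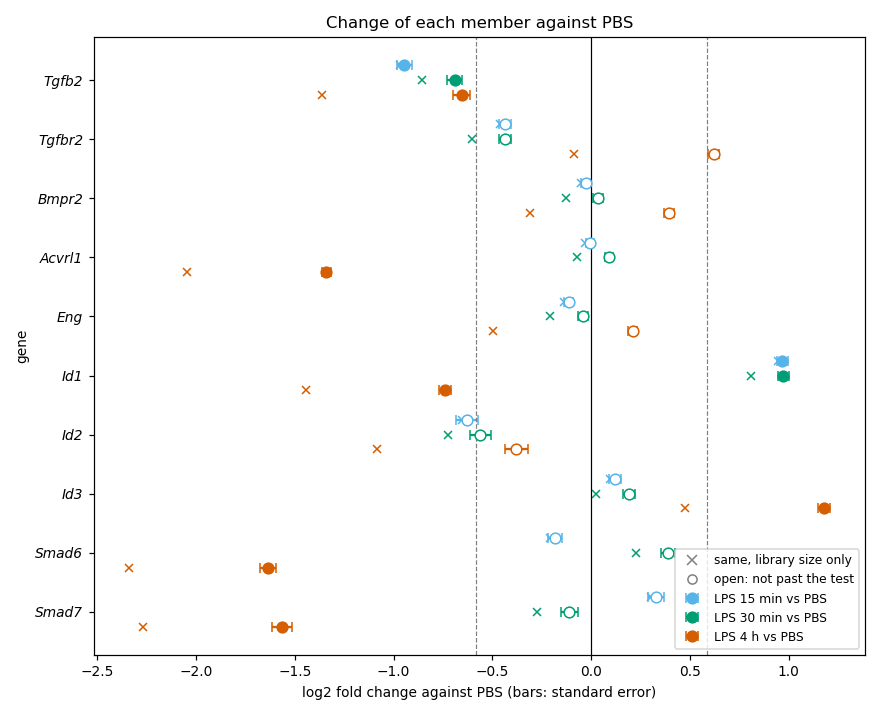
Log2 fold change of each member against PBS (horizontal axis) with its standard error, for each time after LPS. Filled points were called beyond 1.5-fold (dashed lines) and open points were not, and crosses give the same value with library size alone. At 4 h the points of *Smad6*, *Smad7* and *Acvrl1* sit at -1.64, -1.56 and -1.34, and the crosses of *Eng*, *Bmpr2* and *Tgfbr2* sit on the other side of 0 from their points.

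Levels can be compared between genes only per length, in transcripts-per-million (TPM), which is not scaled by TMM and is read here within a group. In PBS *Id1* was the most abundant member at 848 ± 11.1 TPM (SD, n = 3), followed by *Id3* at 610.1 ± 14.9, *Eng* at 460.1 ± 8.92 and *Acvrl1* at 334 ± 9.13 TPM. The others were lower, with *Id2* at 87.5 ± 2.70, *Tgfbr2* at 76.6 ± 3.93, *Smad6* at 67.2 ± 1.26 and *Tgfb2* at 41.6 ± 1.92 TPM. *Bmpr2* at 36.8 ± 1.65 and *Smad7* at 35.9 ± 0.58 TPM closed the order and were the only neighbours in it whose libraries overlapped. The genes thus fell into an abundant set, 2 *Id* genes with endoglin and ALK1, and a set at under 100 TPM.

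At 4 h the order had changed. *Id3* led at 749.5 ± 41.4 TPM, and *Eng* at 278.5 ± 3.53 and *Id1* at 273 ± 13.5 TPM followed with overlapping libraries. *Acvrl1* stood at 69.4 ± 2.99 TPM, whose libraries overlapped those of *Tgfbr2* at 64.5 ± 2.03 TPM. *Smad6* at 11.7 ± 0.99 and *Smad7* at 6.37 ± 0.32 TPM were the lowest, and the *Smad6* libraries overlapped those of *Tgfb2* at 13.1 ± 0.79 TPM. *Acvrl1*, the fourth most abundant member by RNA in PBS, thus overlapped *Tgfbr2* at 4 h.

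**Figure D3:**
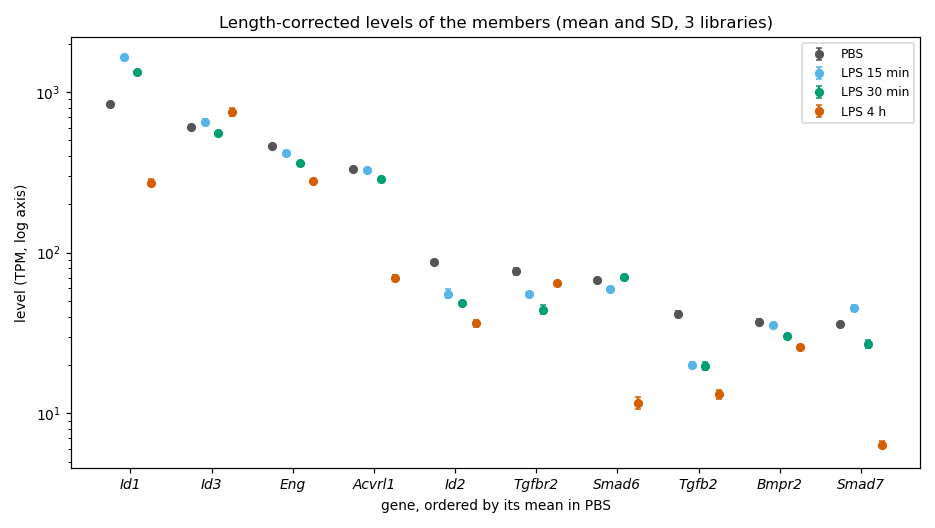
Length-corrected level of each member in TPM (vertical log axis), ordered by its PBS mean, in the 4 groups. Points are the mean of 3 libraries and bars the SD. Within PBS the highest point is that of *Id1*, at 848 TPM, and within 4 h it is that of *Id3*, at 749.5 TPM.

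The Salmon estimates split the reads of a gene over its annotated transcripts, and these shares are described without a test. *Smad6*, *Smad7* and *Bmpr2* were read almost wholly as 1 transcript, with 98.0% to 100% of their TPM in the main *Smad6* transcript, 99.0% to 100% in that of *Smad7* and 99.6% to 99.9% in that of *Bmpr2* as group means. *Id1-201* held 94.5% of *Id1* in PBS, 94.4% at 15 min, 93.6% at 30 min and 91.7% at 4 h. *Tgfb2-201* held 81.6% of *Tgfb2* in PBS (79.1 to 86.3% over libraries) and 88.3%, 85.1% and 87.5% at the 3 times after LPS. The *Tgfbr2* reads divided between *Tgfbr2-201* and *Tgfbr2-202*. *Tgfbr2-201* held 51.7% in PBS, 47.3% at 30 min (44.9 to 49.2%) and 55.3% at 4 h (54.0 to 56.9%). *Acvrl1* was spread over *Acvrl1-205*, *Acvrl1-202*, *Acvrl1-203* and *Acvrl1-201*, and *Acvrl1-203* went from 17.1% in PBS (16.1 to 18.2%) to 11.6% at 15 min (11.3 to 11.8%). At 4 h the largest, *Acvrl1-205*, ranged from 29.3 to 52.5% between libraries. The share of *Eng-202* was 10.1% of *Eng* in PBS (9.97 to 10.2%), and after LPS it was 12.1% by 15 min, 14.9% by 30 min and 16.7% by 4 h (15.8 to 17.8%).

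**Figure D4:**
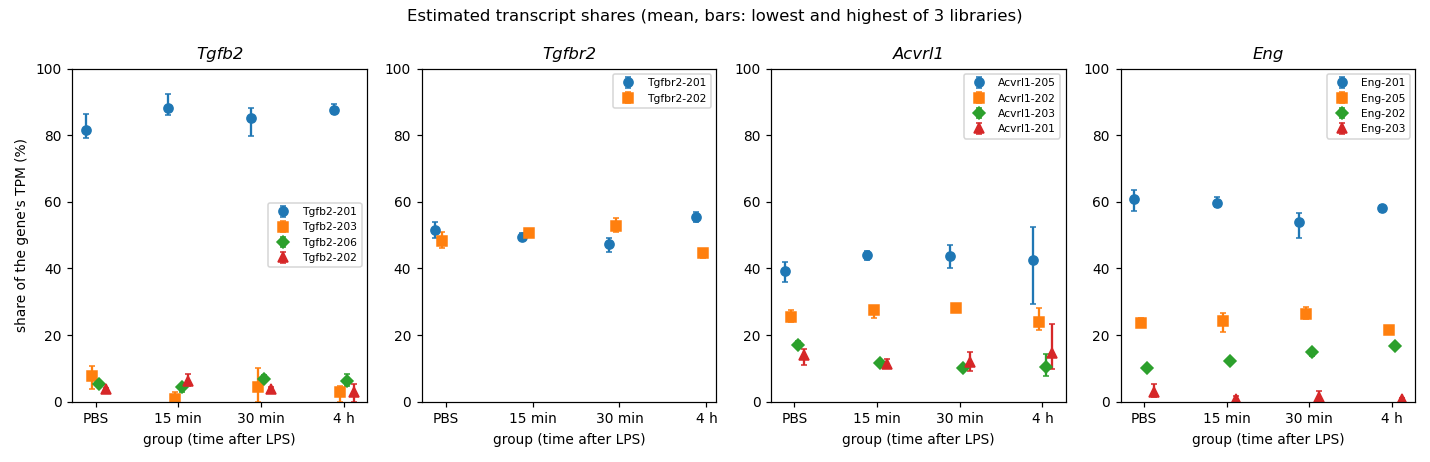
Share of the TPM of *Tgfb2*, *Tgfbr2*, *Acvrl1* and *Eng* (vertical axes, percent) estimated for up to 4 of their transcripts in each group. Points are the mean of 3 libraries and bars run from the lowest to the highest. The *Eng-202* points go from 10.1% in PBS to 16.7% at 4 h, and the bar of *Acvrl1-205* at 4 h runs from 29.3 to 52.5%.

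The other genes of the pathways, 63 in 6 lists of which 60 passed the filter, give the setting of the members. At 15 min 2 were called higher and 2 lower, at 30 min 5 higher and 1 lower, and at 4 h 15 higher and 9 lower. The shares of all genes were 3.31% higher and 0.872% lower at 15 min, 3.78% and 0.799% at 30 min, and 19% and 13.8% at 4 h. Without a fold limit 38.6% of all genes differed at 15 min and 36.9% at 30 min. These are the shares to set beside the list counts below. Scaled by library size alone, 10 were higher and 29 lower at 4 h, and 5 higher and 2 lower at 30 min. Of all 19150 genes 10462 were called at 4 h on that scale, 18.2% of them higher. The median log2 fold changes of the 60 were -0.116, 0.023 and 0.015, and those of all genes -0.0021, -0.01 and -0.0098. Ligands came first. *Gdf2*, which encodes the circulating ALK1 ligand BMP9, had 0 counts in every library, which allows up to 3 fragments per library, and *Bmp10* did not pass the filter. Of the 10 ligands tested, 3 were higher at 4 h and 1 was lower, with a median of 0.10. *Inhbb*, which encodes the activin B subunit, rose from 2.27 ± 0.42 CPM in PBS (SD, n = 3) to 5.22 ± 0.34 at 30 min (log2 fold change 1.19 ± 0.13 SE, glmTreat adjusted p = 0.000566) and 65.8 ± 4.70 at 4 h (4.84 ± 0.11, glmTreat adjusted p = 1.73e-20). *Bmp2* rose from 13.6 ± 1.89 to 55.3 ± 1.63 CPM at 4 h (2.03 ± 0.099, glmTreat adjusted p = 1.21e-12). *Tgfb1* rose from 67.9 ± 4.45 to 121 ± 8.23 CPM (0.83 ± 0.050, glmTreat adjusted p = 2.79e-05), a value that was 0.12 and not called with library size alone. *Bmp7* fell from 57.5 ± 0.51 to 27.5 ± 1.38 CPM (-1.07 ± 0.061, glmTreat adjusted p = 4.64e-08). The others at 4 h were *Tgfb3* at -0.23, *Bmp4* at -0.01, *Bmp5* at 0.10, *Bmp6* at -0.51, *Gdf11* at 0.18 and *Inhba* at 0.11, none of which was called. Library size alone made *Tgfb3* (-0.94), *Bmp4* (-0.72) and *Bmp6* (-1.21) lower calls as well. At 15 min 0 ligands were called by glmTreat or DESeq2, 1 reached an unadjusted p under 0.05, and 6 differed without a fold limit.

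Of the 10 other receptors and co-receptors, 2 were higher at 4 h and the median was -0.23. *Acvr1b*, which encodes the type I activin receptor ALK4, rose from 31.1 ± 3.01 to 90.2 ± 0.54 CPM (1.53 ± 0.067, glmTreat adjusted p = 1.26e-12). *Bmpr1a*, a type I BMP receptor, rose from 45.6 ± 2.37 to 74.1 ± 5.12 CPM (0.70 ± 0.063, glmTreat adjusted p = 0.0323), but with library size alone the value was -0.002. The type I TGF-beta receptor *Tgfbr1* was at -0.26, the co-receptor *Tgfbr3* at -0.20, *Acvr1* at -0.50, *Acvr2a* at 0.02, *Acvr2b* at -0.47, *Bmpr1b* at 0.09, *Acvr1c* at -0.71 and *Rgmb* at -0.30, and none of these was called. Library size alone made 6 of them lower calls, namely *Tgfbr1* (-0.96), *Tgfbr3* (-0.91), *Acvr1* (-1.20), *Acvr2b* (-1.17), *Acvr1c* (-1.42) and *Rgmb* (-0.9991). At 15 and 30 min glmTreat and DESeq2 called 0 of the 10, 0 reached an unadjusted p under 0.05, and 4 and 3 differed without a fold limit.

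The receptor SMADs parted at 4 h. *Smad1* rose from 31.2 ± 1.74 to 193.7 ± 12.3 CPM (2.63 ± 0.054, glmTreat adjusted p = 1.3e-20), and *Smad9* fell from 6.95 ± 0.31 to 1.88 ± 0.45 CPM (-1.89 ± 0.18, glmTreat adjusted p = 1.86e-07). *Smad5* was at 0.16, *Smad2* at -0.05, *Smad3* at 0.58 and the common partner *Smad4* at 0.30, and none of these was called. *Smad2* (-0.75) was called lower with library size alone. At 15 and 30 min glmTreat and DESeq2 called 0 of the 6, 0 reached an unadjusted p under 0.05, and 3 differed without a fold limit at each time.

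Of 7 other BMP target genes 0 rose and 4 fell at 4 h, with a median log2 fold change of -1.05. *Hey1*, a Notch and BMP target that encodes a transcriptional repressor, went from 88.8 ± 2.91 to 20.98 ± 0.671 CPM (-2.08 ± 0.057, glmTreat adjusted p = 1.65e-17). *Atoh8* went from 18.5 ± 1.62 to 8.92 ± 0.46 CPM (-1.05 ± 0.096, glmTreat adjusted p = 3.96e-05) and *Hey2* from 31.9 ± 0.96 to 12.8 ± 1.30 CPM (-1.32 ± 0.080, glmTreat adjusted p = 3.51e-09). *Smad9*, the fourth gene that fell, belongs to this list too. The 3 others lay between -0.55 and 0.09, and with library size alone 6 of the 7 were called lower. At 15 and 30 min glmTreat and DESeq2 called 0 of the 7, 0 reached an unadjusted p under 0.05, and 6 and 5 differed without a fold limit.

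Of 9 TGF-beta target genes 5 rose and 1 fell at 4 h, with a median of 0.945. *Thbs1*, which encodes thrombospondin 1, rose from 23.2 ± 1.06 to 44.7 ± 1.92 CPM at 30 min (0.95 ± 0.045, glmTreat adjusted p = 2.81e-07) and 495.6 ± 10.7 at 4 h (4.42 ± 0.040, glmTreat adjusted p = 3.19e-28). *Ccn2*, a matricellular protein gene, was called higher at all 3 times, going from 66.7 ± 4.07 CPM to 109.5 ± 1.18, then 184 ± 2.01 and last 706 ± 12.4 CPM. Its log2 fold changes were 0.72 ± 0.035, 1.46 ± 0.034 and 3.40 ± 0.034 (glmTreat adjusted p = 0.00365, 8.35e-17 and 3.38e-27). *Skil* was at 0.65 at 15 min (glmTreat adjusted p = 0.249, quasi-likelihood F test adjusted p = 2.76e-12) and rose at 30 min (1.06) and 4 h (1.73), *Pmepa1* rose at 4 h (1.64), and *Fn1*, which encodes fibronectin, rose at 4 h (0.81), a value that was 0.10 and not called with library size alone. *Col1a1*, a collagen gene, fell at all 3 times (-0.94, -0.76 and -1.92). At 4 h 4 of the list were called higher and 3 lower with library size alone. Several of these genes are also induced by other signals. In the 4 h libraries 1 of 4 fibroblast markers was called lower, 3 of 4 neutrophil markers higher, and endothelial markers in both directions. The part of other signals and of these shifts was not tested.

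Of 21 inhibitors and ligand traps tested, 5 rose and 3 fell at 4 h, with a median of 0.09, and with library size alone 3 were higher and 9 lower. The nuclear repressors of SMAD activity *Tgif1* and *Skil* rose at 30 min (1.11 and 1.06) and at 4 h (3.29 and 1.73). The level of *Tgif1* was 12.3 ± 0.48 CPM with PBS, 26.5 ± 2.13 CPM after 30 min and 120.2 ± 2.52 CPM after 4 h. *Fstl1* (1.70) and *Fkbp1a* (0.87) rose at 4 h, and with library size alone *Fkbp1a* was at 0.16 and not called. The BMP antagonist *Nog* (-1.62) and the activin-binding *Fstl3* (-0.89) fell at 4 h. At 15 min the BMP antagonist *Chrd* rose from 30.1 ± 0.88 to 57.0 ± 1.56 CPM (0.92 ± 0.057, glmTreat adjusted p = 2.64e-05). *Ltbp1*, which encodes a latent TGF-beta binding protein, fell from 54.1 ± 2.24 to 27.1 ± 1.52 CPM at 15 min (-0.9999 ± 0.0541, glmTreat adjusted p = 7.26e-07), in the libraries in which *Tgfb2* fell.

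**Figure D5:**
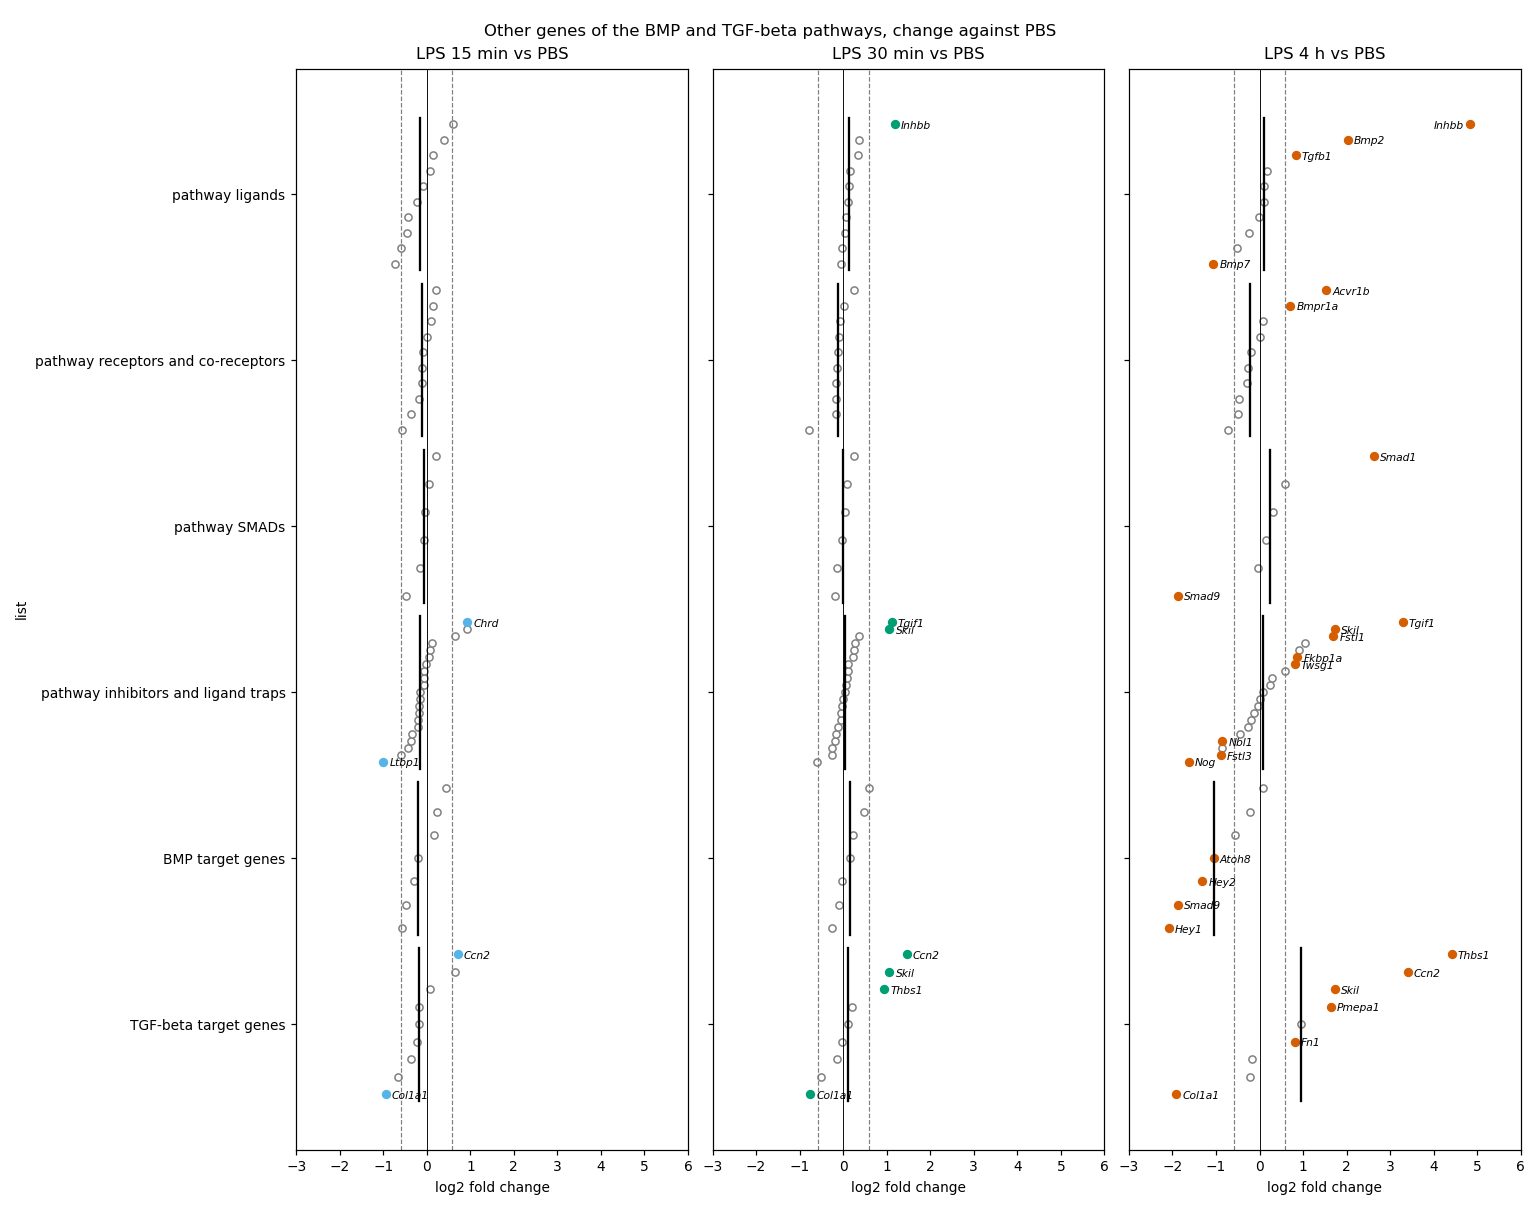
Log2 fold change against PBS (horizontal axes) of the other genes of the BMP and TGF-beta pathways, by list, at each time after LPS. Filled and named points were called beyond 1.5-fold (dashed lines), open points were not, and black bars mark the median of each list. At 4 h the median of the BMP target genes lies at -1.05 and that of the TGF-beta target genes at 0.945.

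The genes whose course was most like that of each member were found over the 4 group means of log2 CPM, each centred on its own mean, by the smallest root mean square (RMS) difference among genes averaging 50 or more fragments per library. Of the members themselves, *Eng* and *Bmpr2* were the closest pair, with an RMS difference of 0.066 log2 units, followed by *Id2* and *Tgfb2* at 0.126. Next came *Smad7* and *Acvrl1* at 0.223 and *Smad6* and *Acvrl1* at 0.224. Over all genes, the 3 closest to *Id1* were *Fkbp4* (0.115), *Per3* (0.131) and *Grasp* (0.148), the widest distances of any member. Closest to *Id2* were *Gprc5c* (0.015), *Mettl27* and *Accs*, and to *Id3* *Rbm18* (0.021), *Ubl3* and *Usp12*. For *Smad6* they were *Fam180a* (0.083), *Selenbp1* and *Klhl4*, and for *Smad7* *Tiam1* (0.015), *Sbk1* and *Pcdha4*. For the receptors they were *Zfyve21* (0.0071), *Trem2* and *Disp3* (*Acvrl1*), *Sgcb* (0.012), *B9d2* and *Ube2m* (*Bmpr2*), *Ogfrl1* (0.0028), *Ube2g1* and *Rad21* (*Eng*) and *Sept10* (0.019), *Pggt1b* and *Idnk* (*Tgfbr2*). For *Tgfb2* they were *Lrrc29* (0.042), *Tex9* and *1700052K11Rik*. These distances rest on 4 values per gene and describe likeness only.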

How the data were processed

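RNA-seq libraries (SMART-Seq v4 with Nextera XT indexing, which do not mark strand) were made from the cerebral vessels of 12 pools of mice, 3 per group. Per the labels, the authors estimated transcript levels with Salmon 1.2.1 on GRCm38.p6 and made a gene table with DESeq2. The deposited Salmon files give estimated counts, TPM and effective lengths per transcript, and the deposited gene table gives a normalized signal, counts divided by size factors. From the estimated counts, 139852 of 140948 transcripts were joined to GENCODE M21 genes by identifier, summed per gene and rounded. The unjoined transcripts held 0.48% to 0.85% of the fragments.

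Genes were filtered with filterByExpr (minimum count 10), scaled by TMM and fitted over all 12 libraries with edgeR 4.0.16 (R 4.3.3) by quasi-likelihood. Changes were tested with glmTreat against 1.5-fold, and p-values were adjusted by Benjamini-Hochberg over 19150 genes. The standard error is the log2 fold change divided by the root of the quasi-likelihood F. CPM and fold changes are on the TMM scale. On data simulated for LPS 30 min against PBS (18708 genes tested), 87% of 2-fold and 100% of 4-fold changes were recovered and 0 unchanged genes were called. Unchanged genes lay inside the 1.5-fold null, which left little room for such calls. Only 200 genes were changed, as many up as down, so the simulation cannot speak to the scaling at 4 h. Between replicates, counts differed by more than sampling noise in every pair (chi-square per gene 2.56 to 7.14). Over 18 pairs of libraries with the same replicate number in different groups, the correlation of deviations was -0.049 to 0.068. No pairing by number was seen. Libraries with different numbers were not compared, so this check cannot settle whether the numbers pair the samples.

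Alternatives were RLE size factors, library size alone, no filter, no fold limit, the compared groups alone, a replicate block, a transcript length offset, DESeq2 1.42.0, limma 3.58.1 on log2 of the deposited normalized counts plus 1 or 10 (and plus 1 without a filter on low values), and leaving out each library. The members and lists were chosen with earlier results of these data known, and 1 gene of the TGF-beta target list is not reported here. Named in the text are all members, the genes of the ligand, receptor and SMAD lists, the endothelial markers, up to 6 called genes (50 or more fragments on average) of each other list by size of change, the 3 genes closest to each member, and pathway genes that differed between times after LPS. Promoter sequences are those of RefSeq (GRCm38.p6).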

Additional observations from a re-analysis of the deposited data

Results flagged for a closer look

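The change from PBS differed between 2 times after LPS, by the test of the times against each other (edgeR glmTreat), in 6 members and in 29 tests of other pathway genes with 50 or more fragments on average. *Ltbp2*, with 49.4 fragments on average, also differed between 30 min and 4 h (1.46), but was not called with library size alone (0.92). Both changes are taken from the same PBS libraries, so the difference is the log2 fold change between the times. With 3 libraries per group, single libraries were not screened for values far from the rest.

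Between 30 min and 4 h the members that differed were *Id1* (-1.71), *Id3* (0.99), *Smad6* (-2.03), *Smad7* (-1.45), *Acvrl1* (-1.43) and *Tgfbr2* (1.06). *Id1* was called on opposite sides of PBS at the 2 times, which no other member was. With library size alone *Id3* and *Tgfbr2* kept their direction and were not called.

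Of the ligands, *Inhbb* (3.65) and *Bmp2* (2.05) were higher and *Bmp7* (-1.10) lower at 4 h than at 30 min. Of the receptors and SMADs, *Acvr1b* (1.52), *Smad1* (2.38) and *Smad3* (0.76) were higher and *Smad9* (-1.86) lower. Among inhibitors and traps, *Tgif1* (2.18), *Fstl1* (1.81), *Twsg1* (1.06), *Ltbp1* (0.90), *Fkbp1a* (0.81) and *Skil* (0.66) were higher and *Nog* (-1.58), *Nbl1* (-0.96) and *Fstl3* (-0.89) lower. The BMP targets *Hey1* (-2.24), *Atoh8* (-1.53), *Hey2* (-1.06) and *Id4* (-0.82) were lower. The TGF-beta targets *Thbs1* (3.47), *Ccn2* (1.94), *Pmepa1* (1.44) and *Fn1* (0.84) were higher and *Col1a1* (-1.16) lower. With library size alone *Smad3*, *Twsg1*, *Ltbp1*, *Fkbp1a*, *Skil* and *Fn1* were not called.

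Between 15 and 30 min *Thbs1* (1.62), *Tgif1* (0.98), *Id4* (0.89) and *Ccn2* (0.75) were higher at 30 min, and *Ccn2* was not called with library size alone.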

How the results depend on the processing

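Without a fold limit the members called numbered 8, 8 and 10 against PBS (in time order) and 5 between 15 and 30 min. At 30 min, 1 member was called with DESeq2 and with limma on each of its 3 settings, and 1 to 2 when 1 library was left out. No other count of members moved by over 1.5 times, and the replicate block changed none of them (2, 2, 6, 0 and 6 members in the order of the report).

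With library size alone, directions turned at 4 h against PBS for *Eng* (-0.49), *Bmpr2* (-0.31) and *Tgfbr2* (-0.084), and at 30 min for *Acvrl1* (-0.073) and *Bmpr2* (-0.13). Between 15 and 30 min they turned for *Id1* (-0.13), *Id2* (-0.072), *Id3* (-0.073), *Eng* (-0.068), *Acvrl1* (-0.045) and *Bmpr2* (-0.080). Between 30 min and 4 h they turned for *Id2* (-0.36), *Eng* (-0.29), *Bmpr2* (-0.18) and *Tgfb2* (-0.50). The cause was not tested beyond the shift of the median of all genes. Values within 0.04 of 0 turned for *Tgfbr2* between 15 and 30 min with RLE (0.0051) and DESeq2 (0.0045), for *Id1* between 15 and 30 min with the length offset (-0.0011), and for *Tgfb2* between 30 min and 4 h with no filter (-0.010) and with the length offset (-0.012). With 1 library left out, *Id1* ranged from -0.0019 to 0.014 and *Tgfbr2* from -0.0195 to 0.031 between 15 and 30 min.

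The *Tgfb2* calls at 30 min and 4 h were the ones most often lost: at 30 min also in limma (adjusted p = 0.065, 0.0719 and 0.0974) and at 4 h also with RLE (edgeR adjusted p = 0.0516). Besides leaving out libraries, 495 fold changes of members kept direction and call under the alternatives, 20 turned direction, 26 became called and 9 lost their call.

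The limits are 3 pools per group, RNA without protein, levels relative to a scaling that differs most at 4 h, mixed vessel RNA, and Salmon estimates for transcripts. Members had 394 to 27060 fragments per library, and their coefficient of variation within groups was 0.19% to 7.24%. The cause of this small spread was not tested.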
